A study of Arabidopsis thaliana with 12 samples.

Results

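AT1G52070 (Entrez gene 841636, chromosome 1) and AT5G35940 (Entrez gene 833584, chromosome 5) are 2 jacalin-type lectin genes of Arabidopsis thaliana, described here across root samples of both genotypes and both salts, out of 13286 genes that had a probe set of their own. They were selected on their measured levels by genotype and salt in these same arrays. Which comparison led to the choice is not recorded, so all their levels and differences are given as a description, with no test. Each gene had 1 probe set, so the rule of taking the probe set with the highest mean left nothing out.

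Transcripts of whole roots from 15-day-old seedlings were measured on 12 Affymetrix arrays, 3 for each of 4 groups. These were the tga1/tga4 double mutant given 5 mM KNO3, tga1/tga4 given 5 mM KCl, wild type (Col-0) given 5 mM KNO3 and wild type given 5 mM KCl, each for 2 h from the start of the light period. All 4 groups had first grown hydroponically for 14 days with 3 mM sucrose and, as the only nitrogen supply, 0.5 mM ammonium succinate, at 22 °C with 16 h of light and 8 h of darkness. The mutant is named for the genes TGA1 and TGA4, its alleles are not given in the sources used here, and no named probe set measured either gene, so the genotype labels were not checked by their transcripts. Replicates are labelled as biological and independent, but not whether plants, cultures or days separated them, so errors and p-values cover only the variation among these samples, part of which may be technical. In bulk roots, fewer cells of a type and less RNA per cell cannot be told apart.

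Jacalin-related lectins are sugar-binding proteins built on a beta-prism fold, and the family is large in the Brassicaceae. Several members act in roots beside the ER body, a compartment that stores the beta-glucosidase PYK10; when tissue is damaged, these lectins join PYK10 in large aggregates. TGA1 and TGA4 are bZIP transcription factors with known parts in the root response to nitrate and in salicylic acid signalling. The annotation used here gives AT1G52070 and AT5G35940 a locus name only.

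Early nitrate-response genes rose in both genotypes. All 6 measured genes of a list of 17 early nitrate-response genes were called higher in tga1/tga4 and in wild type, with a median change of 3.84 in tga1/tga4 and 3.59 in wild type (log2 units, limma), where 3.17% and 3.32% of all probe sets were called higher. PYK10, one of the most abundant root transcripts, lay above 99.0% to 99.8% of probe sets in the 12 samples. The sample medians lay between 2.21 and 2.41, and the first principal component of the brighter 50% of probe sets, which held 54.7% of their variance, parted the 6 KNO3 samples from the 6 KCl samples. On the second component, with 15.1%, the samples numbered 3 lay on one side, from -29.0 to -14.8, against -6.9 to 28.0 for the others.

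AT1G52070 stood higher with nitrate in both genotypes, and higher in the mutant than in wild type under the control salt. Its level in tga1/tga4 roots was 7.36, 6.51 and 7.15 under KNO3, against 4.65, 5.91 and 5.20 under KCl (log2 units, replicates 1, 2 and 3). In wild-type roots it was 6.99, 5.85 and 6.67 under KNO3, against 3.84, 3.92 and 3.83 under KCl. Within each genotype, the KNO3 samples did not overlap with the KCl samples and were higher, as in 9.86% of all probe sets in tga1/tga4 and 9.62% in wild type. The wild-type KCl samples were nearly equal, with an SD of 0.05, whereas those of the mutant under KCl ran from 4.65 to 5.91, with an SD of 0.63 (n = 3 each).

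The fitted nitrate difference of AT1G52070 was 1.75 ± 0.34 in tga1/tga4 and 2.65 ± 0.34 in wild type (KNO3 minus KCl, log2 units ± SE, n = 3 per group). On a linear scale these are 3.37-fold and 6.26-fold. Of all 22746 probe sets tested, 1.31% had a nitrate difference at least as large in either direction in the mutant and 0.44% in wild type. The genotype difference, tga1/tga4 minus wild type, was 0.50 ± 0.34 under KNO3, where samples of both genotypes overlapped. Under KCl it was 1.39 ± 0.34, and the mutant samples were higher with no overlap, as in 3.81% of all probe sets. That KCl difference, 2.63-fold, was the 17th largest of 22746 in absolute size. The interaction, meaning the mutant's nitrate difference less the wild-type one, was -0.89 ± 0.48. Without tga1/tga4 KCl replicate 2, the sample with the highest KCl level, this last value was -0.56, and without wild type KNO3 replicate 2, the lowest KNO3 sample, it was -1.22. Omitting wild type KNO3 replicate 2 also brought the KNO3 genotype difference to 0.17, and that of tga1/tga4 KNO3 replicate 1 to 0.32. Such single omissions leave a sample without its equal in number in the other genotype. With all samples of 1 number left out, the KNO3 genotype difference ran from 0.42 to 0.57 and the interaction from -1.11 to -0.67.

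Ordered by mean level, the groups of AT1G52070 ran from tga1/tga4 under KNO3 (7.01 ± 0.44, SD, n = 3) through wild type under KNO3 (6.51 ± 0.59) and tga1/tga4 under KCl (5.25 ± 0.63) to wild type under KCl (3.86 ± 0.05). The highest 2 groups overlapped, and so did the middle 2, since the lowest wild-type KNO3 sample (5.85) lay below the highest tga1/tga4 KCl sample (5.91). The wild-type KCl group alone stood clear of its neighbour. Even there the transcript lay above 66.0% to 68.2% of probe sets, so AT1G52070 was not among the dimmest signals in any group.

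AT5G35940 followed a different order, with the genotypes further apart than the salts. Its level in tga1/tga4 roots was 3.21, 3.32 and 3.39 under KNO3, against 2.62, 3.12 and 2.53 under KCl (log2 units, replicates 1, 2 and 3). In wild-type roots it was 4.13, 4.21 and 4.64 under KNO3, against 3.72, 3.82 and 3.60 under KCl. The 4 groups did not overlap at all. The highest of 6 mutant samples was below the lowest of 6 wild-type samples, whichever salt was given, as in 0.0879% of all probe sets. Within each genotype KNO3 gave the higher values with no overlap, as in 9.86% of all probe sets in tga1/tga4 and 9.62% in wild type. The gene was selected on these levels, so nothing is read from those shares.

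**Figure D1:**
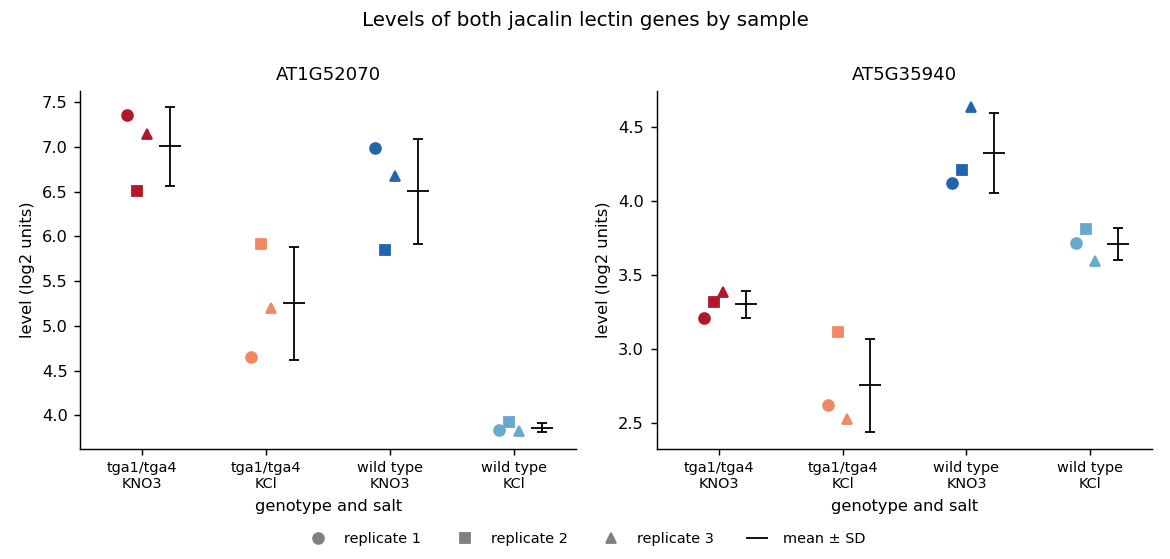
Level of AT1G52070 (left) and AT5G35940 (right) in each of the 12 samples, in log2 units, by genotype and salt; symbols mark the replicate number and bars the mean ± SD (n = 3). AT1G52070 is lowest in wild type under KCl, near 3.86, and AT5G35940 is lower in both mutant groups, at 2.53 to 3.39, than in both wild-type groups, at 3.60 to 4.64.

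For AT5G35940 the genotype difference was -1.02 ± 0.17 under KNO3 and -0.96 ± 0.17 under KCl (tga1/tga4 minus wild type, log2 units ± SE, n = 3 per group), or 2.03-fold and 1.94-fold lower in the mutant. The nitrate difference was 0.55 ± 0.17 in tga1/tga4 and 0.62 ± 0.17 in wild type, 1.46-fold and 1.53-fold. Its interaction was -0.07 ± 0.24 and ran from -0.18 to 0.12 when single samples were left out, which unpairs the genotypes. The sign turned without tga1/tga4 KCl replicate 2 (0.12) and without wild type KNO3 replicate 3 (0.089). With all samples of 1 number left out, the interaction ran from -0.19 to -0.00067 and kept its sign. The genotype difference under KNO3 was the 10th largest of 22746 in absolute size and that under KCl the 50th. The mutant samples were lower with no overlap, as in 3.57% of all probe sets under KNO3 and 5.34% under KCl. The nitrate differences were ordinary by comparison, since 11.3% of probe sets in tga1/tga4 and 9.56% in wild type had one at least as large. The probe set was dim in the mutant under KCl, above only 53.1% to 58.0% of probe sets in its samples, so the size of the difference there is less certain than in the brighter groups.

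A genotype difference of at least 0.956 log2 units in the same direction under both salts, a size set by AT5G35940 itself, was found in 6 of 22746 probe sets, 5 lower and 1 higher in tga1/tga4. The other 5 carry no gene name in the table used here, and each had a larger absolute difference than AT5G35940 under both salts. The largest stood at -5.98 under KNO3 and -3.52 under KCl. Subtracting samples of the same replicate number gave mutant minus wild-type differences of AT5G35940 from -1.25 to -0.90 under KNO3 and from -1.10 to -0.70 under KCl. The same subtraction gave AT1G52070 differences from 0.37 to 0.66 under KNO3 and from 0.82 to 1.99 under KCl. These differences restate the levels on which both genes were selected.

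**Figure D2:**
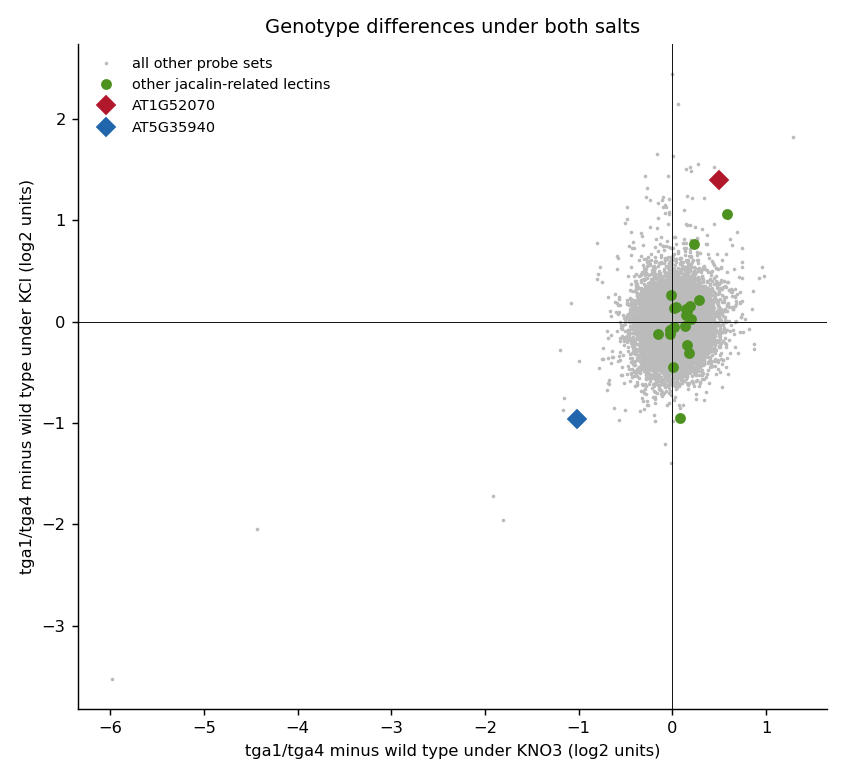
Difference tga1/tga4 minus wild type under KNO3 (x axis) and under KCl (y axis), in log2 units, for 22746 probe sets (grey), the other measured jacalin-related lectins (green), AT1G52070 (red) and AT5G35940 (blue). AT5G35940 lies near -1 on both axes, at -1.02 and -0.96, and AT1G52070 lies at 0.50 under KNO3 and 1.39 under KCl.

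Few genotype differences were called over the whole table, in a fit that does not pair replicate numbers. The SEs of genotype differences given above come from the same fit. By limma with Benjamini-Hochberg adjustment, 0.0132% of probe sets were called under KNO3 and 0.0176% under KCl, 3 and 4 probe sets, and 0.0044%, or 1, for the interaction. With salt and replicate number as a fixed replicate block, 18 were called under KCl. Over 10 alternatives that left out no replicate, 2 to 4 were called under KNO3. These shares count every probe set in the table, with or without a gene name.

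AT1G52070 has close relatives next to it on the chromosome. In the TAIR10.1 gene order, AT1G52050, AT1G52060 and AT1G52070 are consecutive protein-coding genes, and MBP2, MBP1 and AT1G52000 precede them and AR791, AT1G52100 and AT1G52110 follow. All but AR791 are on the list of jacalin-related lectins. Of those listed, AT1G52000, AT1G52050, AT1G52060 and AT1G52100 were measured along with AT1G52070, and their own differences were tested. AR791 was measured too but, not being on the list, is not described here.

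AT1G52050 and AT1G52060 rose with nitrate in both genotypes. AT1G52060 was at 5.67, 5.13 and 5.90 in tga1/tga4 under KNO3, against 1.78, 3.91 and 3.05 under KCl, and at 5.38, 4.32 and 5.25 in wild type under KNO3, against 1.29, 2.25 and 2.00 under KCl (log2 units). It rose by 2.66 ± 0.47 in tga1/tga4 and 3.13 ± 0.47 in wild type (± SE, n = 3 per group, limma adjusted p = 0.00549 and 0.00178). AT1G52050 was at 4.51, 3.75 and 5.12 in tga1/tga4 under KNO3, against 1.22, 2.79 and 1.76 under KCl, and at 4.63, 3.42 and 4.64 in wild type under KNO3, against 1.08, 1.31 and 1.10 under KCl. It rose by 2.54 ± 0.44 in tga1/tga4 and 3.07 ± 0.44 in wild type (limma adjusted p = 0.00453 and 0.00118). In both genes all 3 KNO3 samples lay above the KCl samples of their genotype, as in 9.86% of all probe sets in tga1/tga4 and 9.62% in wild type. Some of their KCl values lay under 2.21, the lowest sample median, so the size of the rise is uncertain.

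Both calls held in both genotypes without any 1 of the 12 samples. Without all samples numbered 3, AT1G52060 was no longer called in tga1/tga4 or wild type (limma adjusted p = 0.105 and 0.0561) nor AT1G52050 in tga1/tga4 (0.101), and without those numbered 1 the last was lost as well (0.123). The genotype difference under KCl was 1.07 ± 0.47 for AT1G52060 and 0.77 ± 0.44 for AT1G52050, of the same sign as in AT1G52070. Neither passed (limma adjusted p = 1.00 for each, in a fit that does not pair replicate numbers). Over 10 alternatives that left out no replicate, the lowest limma adjusted p was 0.118 for AT1G52060 and 0.291 for AT1G52050. Differences between samples of equal number under KCl ran from 0.49 to 1.66 and from 0.15 to 1.48. The interaction was -0.48 ± 0.67 for AT1G52060 and -0.53 ± 0.62 for AT1G52050, and neither passed (limma adjusted p = 0.999 for each).

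The flanking genes of the same family had nitrate differences near 0. AT1G52100 had a nitrate difference of 0.05 ± 0.14 in tga1/tga4 and -0.00 ± 0.14 in wild type, and AT1G52000 one of 0.02 ± 0.11 and 0.05 ± 0.11 (log2 units ± SE, n = 3 per group). Both were dim in every sample, AT1G52100 at 1.07 to 1.56 and AT1G52000 at 0.37 to 0.81, below the sample medians, so a change in them could have gone unmeasured. Whether probes of AT1G52050, AT1G52060 and AT1G52070 also bind the transcripts of their relatives was not tested.

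**Figure D3:**
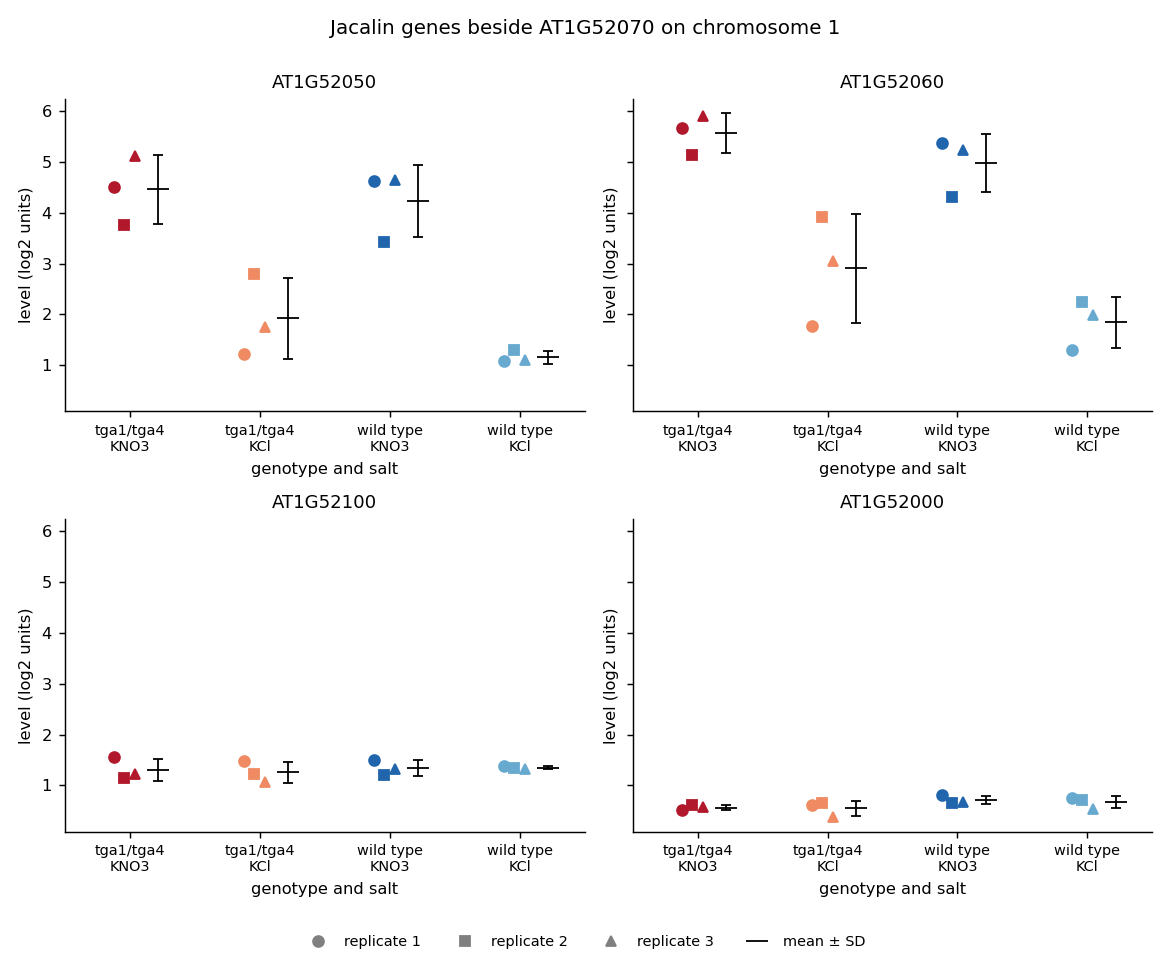
Level of the measured jacalin-related lectin genes around AT1G52070 in each of the 12 samples, in log2 units on a shared axis, by genotype and salt; symbols mark the replicate number and bars the mean ± SD (n = 3). AT1G52050 and AT1G52060 are higher under KNO3 in both genotypes, while AT1G52100 and AT1G52000 stay at or below 1.56 in all samples.

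The 3 consecutive genes also varied together among replicates. Over all 12 samples, the level of AT1G52070 had a Pearson r of 0.97 with AT1G52060 and 0.96 with AT1G52050, the 2 highest values among 5989 genes with a mean above the median probe set. The next were AT3G52060, AT5G51310 and AT5G02640, with r of 0.957, 0.957 and 0.956. These correlations describe likeness over samples that differ in salt, so any nitrate-responsive gene shares part of it. After each group's mean was subtracted, r was 0.92 with AT1G52050 and 0.88 with AT1G52060 (12 deviations in 4 groups). In these deviations the most similar gene was SP1L4 (r = 0.95), of the SPIRAL1-like family of microtubule-associated proteins. AT1G52050 came next, followed by AT3G06460 (0.91), a member of the ELO-type family of fatty acid elongases.

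The spread of the mutant under KCl was shared. In all of AT1G52050, AT1G52060 and AT1G52070, tga1/tga4 KCl replicate 1 was the lowest of its group and replicate 2 the highest. Replicate 1 was also the lowest of that group for the root hair expansin genes EXPA7, at 2.92, against 4.47 and 4.0 in replicates 2 and 3, and EXPA18, at 3.09, against 4.56 and 4.72. Of 22 listed root hair genes 3 were measured, EXPA7, EXPA18 and AT2G47540. Their mean level ran from 4.54 to 5.12 in tga1/tga4 under KNO3, 3.50 to 4.84 in tga1/tga4 under KCl, 4.77 to 5.10 in wild type under KNO3 and 3.15 to 3.34 in wild type under KCl. The part of root hair cells in the levels of AT1G52070 was not tested.

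Those root hair genes rose with nitrate in wild type, 3 of 3, where 5.51% of all probe sets were called, and 0 of 3 passed in the mutant (limma; 0 at an unadjusted p under 0.05), where 5.12% were. The difference between those responses, the interaction, ran from -1.50 to -1.15, and 0 of 3 passed (limma adjusted p = 0.999 for each; 3 at an unadjusted p under 0.05). Of all 22746 probe sets, 3542 had an unadjusted limma p under 0.05 for nitrate in tga1/tga4 and 683 for the interaction. EXPA18 rose by 2.23 ± 0.34 in wild type and stood 0.73 ± 0.34 higher with nitrate in tga1/tga4 (limma adjusted p = 0.00195 and 0.338). AT2G47540 rose by 1.13 ± 0.30 in wild type, close to the threshold (limma adjusted p = 0.0499), and was called under 9 of 24 alternatives. Under KCl, EXPA7, EXPA18 and AT2G47540 stood 1.07 to 1.23 higher in the mutant, and 0 of 3 passed (limma; 3 at an unadjusted p under 0.05). For this comparison 1068 of all 22746 probe sets had an unadjusted limma p under 0.05. Without tga1/tga4 KCl replicate 1, the lowest of its group for EXPA7 and EXPA18, all 3 were called. That omission gave 18 calls over the whole table, against 4 with all samples. Of 25 alternatives, EXPA7 was called under 1, and EXPA18 and AT2G47540 under 2 each.

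AT5G35940 had a profile unlike that of the chromosome 1 genes. Its r with AT1G52070 was 0.15 over the 12 levels and 0.40 over the 12 deviations from group means. The gene most like it by level was AT5G15950 (r = 0.93, Spearman's rho 0.92), which encodes an S-adenosylmethionine decarboxylase of polyamine synthesis. AT4G33140, AT4G11410, AT4G10480 and AT1G70280 followed with r from 0.848 down to 0.826. By deviations from group means, the most similar were AT1G68080 (r = 0.92), AT5G67150 (0.92) and AT5G40830 (0.91), none of which was among the 5 most similar by level.

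AT5G15950 was at 5.32, 5.59 and 5.74 in tga1/tga4 under KNO3, against 4.61, 5.04 and 4.57 under KCl, and at 6.0, 6.19 and 6.17 in wild type under KNO3, against 5.53, 5.71 and 5.88 under KCl (log2 units). Within each salt its mutant samples were all lower than wild type, as in 3.57% of all probe sets under KNO3 and 5.34% under KCl. The difference was -0.57 ± 0.16 under KNO3 and -0.97 ± 0.16 under KCl (± SE, n = 3 per group). Unlike AT5G35940, its groups of tga1/tga4 under KNO3 and wild type under KCl overlapped. Being picked for its likeness, it adds no test of the genotype difference.

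The cortex marker CO2 (AT1G62500) had genotype differences of the same sign as AT5G35940, and nitrate differences of the opposite sign. CO2 was at 3.40, 3.90 and 2.68 in tga1/tga4 under KNO3, against 4.58, 3.19 and 4.02 under KCl, and at 4.36, 4.23 and 3.47 in wild type under KNO3, against 4.60, 4.65 and 4.57 under KCl (log2 units). The genotype difference was -0.69 ± 0.37 under KNO3 and -0.68 ± 0.37 under KCl, and neither passed (limma adjusted p = 1.00 for each). The samples of both genotypes overlapped under each salt, unlike those of AT5G35940. The nitrate difference of CO2 was -0.61 in tga1/tga4 and -0.59 in wild type. Of the 16 listed markers of other root cells and tissues, CO2 was the only one measured, and the part of the cortex in the level of AT5G35940 was not tested. Of 16 shoot markers, RCA alone was measured, at 3.69 to 4.06 in tga1/tga4 under KNO3, 3.94 to 4.61 in tga1/tga4 under KCl, 3.72 to 4.04 in wild type under KNO3 and 4.02 to 4.83 in wild type under KCl.

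**Figure D4:**
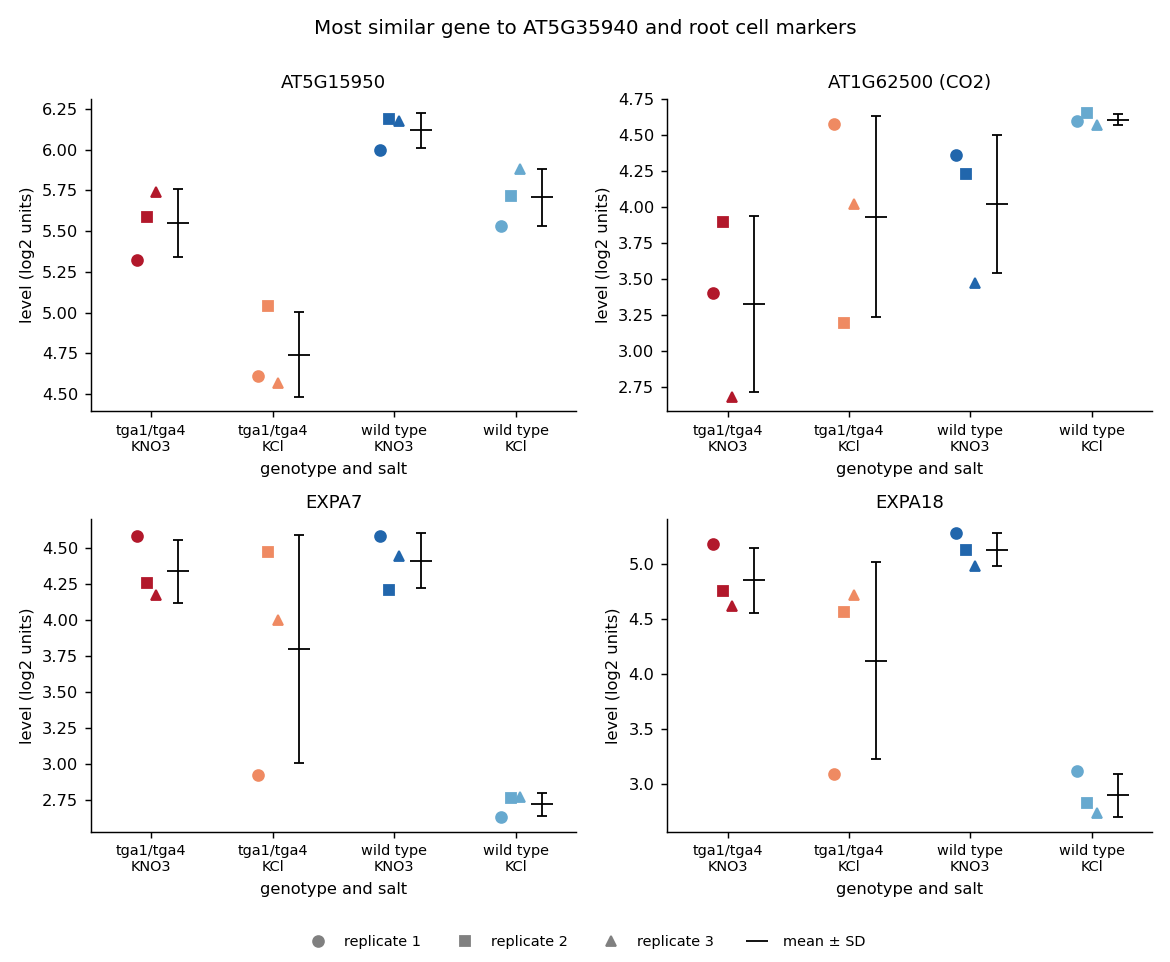
Level of AT5G15950, the cortex marker AT1G62500 (CO2) and the root hair expansin genes EXPA7 and EXPA18 in each of the 12 samples, in log2 units, by genotype and salt; symbols mark the replicate number and bars the mean ± SD (n = 3). AT5G15950 is lower in tga1/tga4 under each salt, and EXPA7 and EXPA18 are widely spread in tga1/tga4 under KCl, from 2.92 to 4.47 and from 3.09 to 4.72.

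In the wider family, AT1G52050 and AT1G52060 were the only other lectin genes called with nitrate in both genotypes. Of 49 listed jacalin-related lectin genes 22 were measured, and 20 of these are not AT1G52070 or AT5G35940. Among those 20, 2 rose, 0 fell and 18 did not pass with nitrate in tga1/tga4, where 5.12% of all probe sets were called, 3.17% higher and 1.95% lower. In wild type 2 rose, 1 fell and 17 did not pass, where 5.51% of all probe sets were called, 3.32% higher and 2.19% lower. The median nitrate difference over the 20 was -0.04 in tga1/tga4 and -0.09 in wild type, against -0.01 and -0.01 over all probe sets (log2 units). Of the 20, 11 had a mean below 2.35, the median over probe sets, so changes in them may have been missed. AT1G19715, with a mean of 1.94, was among these 11 and was still called in wild type.

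AT1G19715 was the gene that fell. It fell by 1.20 ± 0.21 with nitrate in wild type (log2 units ± SE, n = 3 per group, limma adjusted p = 0.00442) and had a difference of -0.16 ± 0.21 in tga1/tga4 (limma adjusted p = 0.828). The difference between those responses was 1.04 ± 0.29 and did not pass (limma adjusted p = 0.999). AT1G19715 was dim, at 1.29 to 2.89, and its wild-type call ended without all samples numbered 1 or all numbered 2 (limma adjusted p = 0.0740 and 0.100).

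Several brighter family members had nitrate differences that did not pass. AT2G25980 stood 1.26 ± 0.37 higher in tga1/tga4 and 1.08 ± 0.37 higher in wild type (limma adjusted p = 0.0874 and 0.150). Its salts did not overlap in either genotype, as in 9.86% of all probe sets in tga1/tga4 and 9.62% in wild type. AT1G33790 had differences of -1.11 ± 0.48 and -1.50 ± 0.48, and AT1G73040 of -0.73 ± 0.33 and -1.22 ± 0.33, in tga1/tga4 and wild type (limma adjusted p from 0.0562 to 0.312). AT5G49870, at 0.79 ± 0.31 and 0.72 ± 0.31, had the sign of AT5G35940 and a similar size.

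**Figure D5:**
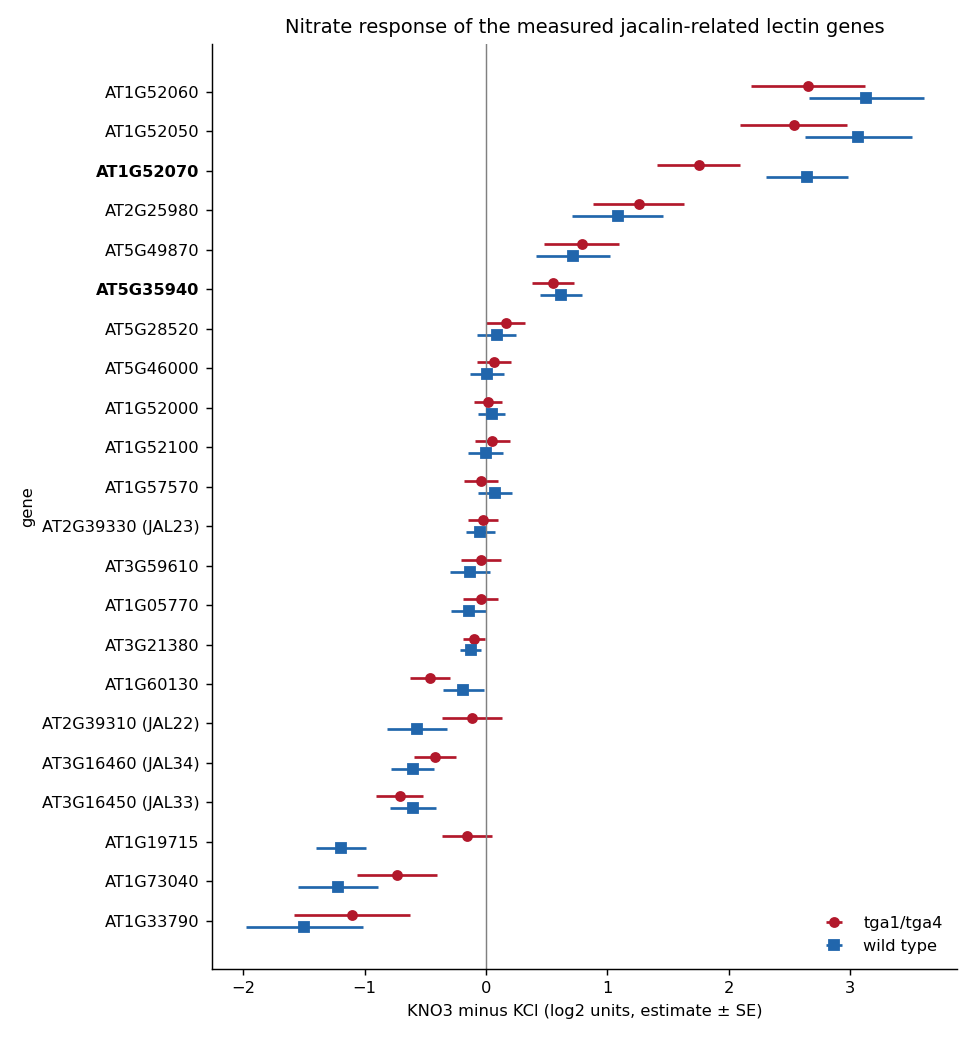
Nitrate difference, KNO3 minus KCl in log2 units (x axis), of the 22 measured jacalin-related lectin genes (rows), in tga1/tga4 (red circles) and wild type (blue squares), with the estimate ± SE; AT1G52070 and AT5G35940 are in bold. AT1G52060, AT1G52050 and AT1G52070 lie at the top, from 1.75 to 3.13, and most other members lie near or below 0.

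The genotype differences of the other lectins were tested, while that of AT5G35940 was not. Of the 20, 0 passed between genotypes under KNO3 (limma; 0 at an unadjusted p under 0.05) and 0 under KCl (limma; 2 at an unadjusted p under 0.05), and 0 passed for the interaction (limma; 1 at an unadjusted p under 0.05). In the same order, 397, 1068 and 683 of all 22746 probe sets had an unadjusted limma p under 0.05. With 0.0132%, 0.0176% and 0.0044% of all probe sets called, a count of 0 is near the background. Their medians were 0.14 under KNO3 and 0.04 under KCl, against -0.00095 and -0.0075 over all probe sets. The lowest value among them under KNO3 was -0.15, against -1.02 for AT5G35940. Under KCl it was -0.95, that of AT1G19715 (limma adjusted p = 0.553), against -0.96 for AT5G35940. The KCl samples of AT1G19715 were all lower in the mutant than in wild type, as in 5.34% of all probe sets. These medians are given as a description of the list.

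Among the listed lectins that act beside PYK10, JAL33 and JAL34 were bright, with means over the 12 samples of 8.34 and 8.97, JAL22 was at 5.02, and JAL23 was dim, at 0.59. Of 21 listed genes of the ER body and the PYK10 complex 8 were measured, 4 of them jacalin-related lectins that also belong to the 20 above, and 0 passed in tga1/tga4 (limma; 2 at an unadjusted p under 0.05) or in wild type (limma; 4 at an unadjusted p under 0.05). With 5.12% and 5.51% of all probe sets called, 0 of 8 is near the background. At an unadjusted limma p under 0.05 stood 3542 of all 22746 probe sets in tga1/tga4 and 3750 in wild type. JAL33 stood at -0.71 ± 0.19 in tga1/tga4 and -0.60 ± 0.19 in wild type, and JAL34 at -0.42 ± 0.17 and -0.60 ± 0.17 (log2 units ± SE, n = 3 per group, limma adjusted p from 0.0566 to 0.252). PYK10 itself stood at -0.46 ± 0.23 and -0.59 ± 0.23 (limma adjusted p = 0.380 and 0.215). NAI1, the bHLH factor required for ER bodies, and NAI2, an ER body protein, had differences between 0.01 and 0.33. JAL33 lay just above the threshold in tga1/tga4 and was called there with median centring or quantile normalization, and JAL34 in wild type with quantile normalization. Without tga1/tga4 KNO3 replicate 3, PYK10 was called lower in both genotypes, with JAL33 in tga1/tga4 and JAL34 in wild type. Of 24 alternatives, however, PYK10 was called under only 2 in each genotype, JAL33 under 8 in tga1/tga4 and JAL34 under 4 in wild type.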

How the data were processed

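Root RNA of 12 samples was labelled with a 3' IVT kit, per the labels' protocols. The deposited table holds log2 values by probe set; how the authors corrected background, normalized and summarised them is not given in the sources used here. That the scale is log2 was read from spiked controls: at nominal concentrations of 100 and 1.5 pM, they differed by 5.62 or 6.24 in the 2 sets of control probe sets, where log2 predicts 6.06 and the natural log 4.2. Precision is limited by the number of arrays, and no detection calls were used.

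Of 22810 probe sets, 64 controls were left out. Of the other 22746, 13513 had 1 gene symbol, 503 several and 8730 none in the platform annotation, and 13436 matched RefSeq (TAIR10.1). limma 3.58.1 (R 4.3.3) was fitted to all 12 samples with 1 mean per group and no intensity trend, two-sided, with Benjamini-Hochberg adjustment over the 22746 probe sets at 0.05. The fit was tested on simulated data with 200 of 22746 probe sets changed in wild type under KNO3. Changes of 0.5 and 1 log2 units were recovered in 12.5% and 70.7% for nitrate in wild type. For the interaction the shares were 0.896% and 39.7%, so small differences that did not pass may have been missed. A gene was represented by its brightest probe set. The 2 lectins and all lists, which come from general knowledge, were chosen with earlier results of these data known.

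Within a salt, samples of equal number deviated alike in both genotypes (r from 0.28 to 0.73 over the brighter 50% of probe sets), so the numbers pair genotypes. Between salts r ran from -0.14 to 0.23, so no pairing of salts was clear over all numbers. For number 3 it was 0.23 in each genotype, and the samples numbered 3 also lay together on the second principal component. Besides both lectins, the rule named listed lectins that were called or lie beside them, the 5 genes most similar by level and 3 by deviation to each, and called members of other lists. AT2G25980, AT1G33790, AT1G73040, AT5G49870, JAL22, JAL23, JAL33, JAL34, PYK10, NAI1, NAI2, CO2 and RCA were named after their values were seen. Alternatives covered replicate blocks, scaling, variance models, filters and omitted samples.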

Additional observations from a re-analysis of the deposited data

How the results depend on the processing

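The differences of AT1G52070 and AT5G35940 moved by less than their pooled within-group SD (0.49 and 0.22) under every alternative that kept all samples. In this balanced design, replicate blocks and a fit of only the compared groups return the same differences. The floor lay below every value of both genes. Only median centring, quantile normalization and array weights could therefore move them. The SD of 0.49 is about the size of the KNO3 genotype difference of AT1G52070. AT1G52070 stayed at 1.71 to 1.75 for nitrate in tga1/tga4, 2.65 to 2.76 for nitrate in wild type, 0.48 to 0.50 for genotype under KNO3 and 1.39 to 1.48 for genotype under KCl, and AT5G35940 at -1.04 to -0.97 and -0.96 to -0.86 for genotype under KNO3 and KCl. The nitrate difference of AT5G35940 ran from 0.41 (array weights) to 0.55 in tga1/tga4 and from 0.52 (array weights) to 0.67 (median centring) in wild type, and its interaction from -0.15 to -0.07. Leaving out all samples of 1 number, which was chosen after seeing the data, gave AT1G52070 a nitrate difference in tga1/tga4 from 1.27 (without number 1) to 2.33 (without number 2). No other probe set of either gene was named, so the alternative of another probe set gave no value.

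Probe sets called between genotypes under KCl numbered 18 with salt and number as a fixed replicate block, 2 with a floor at the sample median and 2 with only the compared groups in the fit. For the interaction the count was 2 under each of the 3 replicate blocks, median centring, array weights and the floor. For nitrate in tga1/tga4 it was 1822 with array weights. Other lectins called for nitrate in tga1/tga4 numbered 4 with number as a replicate block over all groups, with an intensity trend or among the brighter 50% of probe sets, and 0 among genes named jacalin in RefSeq. In wild type they numbered 6 with that replicate block and 0 among genes so named. Only 4 genes so named were measured. AT1G52050, AT1G52060 and AT1G19715 are not among them, so these counts of 0 do not test the calls of those genes. The replicate blocks called 0 other lectins between genotypes. Of the ER body list, alternatives added after seeing the data called 1 gene for nitrate in tga1/tga4 (median centring, quantile normalization, trend, array weights, brighter 50%) and 1 in wild type (number as a replicate block, quantile normalization, array weights). The cause of these shifts was not tested.

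With samples left out, singly or by number, the calls ranged from 547 to 1221 for nitrate in tga1/tga4, 567 to 1326 for nitrate in wild type, 0 to 18 for genotype under KCl (18 without tga1/tga4 KCl replicate 1) and 0 to 2 for the interaction. Other lectins called ranged from 1 to 4 in tga1/tga4 and 2 to 4 in wild type, ER body genes from 0 to 2 in each genotype, and root hair genes from 1 to 3 for nitrate in wild type and 0 to 3 for genotype under KCl.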
